A study of Mus musculus with 20 samples.

Results

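The family of miR-15, miR-16, miR-195 and miR-497 is a group of microRNAs (miRNAs, short RNAs that guide repression of messenger RNAs) made by 3 pairs of neighbouring hairpins. Its members were taken by name from the deposited table: miR-15a-5p, miR-15b-5p, miR-16-5p, miR-16-1-3p, miR-195a-5p and miR-497a-5p, 6 of 1545 entries. All 6 were among the 360 miRNAs tested, which are those with at least 5 RPM (reads of the miRNA per 1000000 miRNA reads of its library) in at least 4 of 20 libraries. The small RNA of whole hearts of C57BL/6J mice was sequenced in a sham group (5 libraries) and after myocardial infarction (MI, 4 libraries), CIH (4 libraries) or both (MI+CIH, 7 libraries). The labels name no gene alteration, sex, age, infarct size, duration of CIH or time after infarction, and CIH, given as letters, is read here as chronic intermittent hypoxia. They also do not say whether the libraries of a group came from separate animals, so the p-values measure the spread between these libraries. Each library is called a heart below.

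A miRNA finds its targets mainly through its seed, bases 2 to 8 from the 5′ end. The 5p members of this family are known to repress cell cycle genes such as cyclins D1, D2, D3 and E1 and the kinase Chek1, and the survival gene Bcl2. In the mouse heart the family is known for rising after birth, when heart muscle cells leave the cell cycle, and for restraining their division after injury.

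The mature sequences, taken from RefSeq (GRCm38.p6) and written 5′ to 3′ with the seed in capitals, are shown because they set apart 5 members with 1 common seed from a member with another.
miR-15a-5p: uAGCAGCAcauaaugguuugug
miR-15b-5p: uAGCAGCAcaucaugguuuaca
miR-16-5p: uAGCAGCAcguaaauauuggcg
miR-195a-5p: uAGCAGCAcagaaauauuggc
miR-497a-5p: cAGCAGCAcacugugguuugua
miR-16-1-3p: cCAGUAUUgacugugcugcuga
The 5 members from the 5p arm share the seed AGCAGCA, which 10 of 1679 mature names in the RefSeq table hold. miR-16-1-3p comes from the opposite arm of the Mir16-1 hairpin, and its seed, CAGUAUU, is a different one. Over their whole length, miR-16-5p and miR-195a-5p were the most alike pair of 5p members, with 19 of 21 aligned bases identical. miR-15a-5p and miR-15b-5p matched at 18 of 22 bases, and miR-16-5p and miR-497a-5p at 11 of 22.

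The 3 hairpin pairs lie on different chromosomes (GRCm38, GENCODE M21 annotation). Mir15a (chr14:61632027-61632110, minus strand) and Mir16-1 (chr14:61631880-61631972, minus strand) are 54 bases apart in the noncoding gene Dleu2, Mir15a in an intron and Mir16-1 overlapping an annotated exon. Mir15b (chr3:69009772-69009835) and Mir16-2 (chr3:69009902-69009996), both on the plus strand, are 66 bases apart in introns of Smc4, which codes for a condensin subunit. Mir497 (chr11:70234717-70234800) and Mir195a (chr11:70235042-70235135), also on the plus strand, are 241 bases apart. Mir497 overlaps the hairpin of Mir497b on the opposite strand. Mature miR-16-5p has the same sequence from Mir16-1 and Mir16-2, so its reads cannot be divided between chromosomes 14 and 3.

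The 20 libraries held 1991323 to 18138415 reads and fell into 3 sets by their overall profile, which the labels do not name. All uninfarcted hearts belonged to set A (11 libraries), together with 1 infarcted heart of each kind, MI 2 and MI+CIH 1. The 6 libraries of set B came from MI+CIH hearts 2 to 5 and MI hearts 1 and 3. The 3 of set C came from MI+CIH hearts 6 and 7 and MI heart 4. Pearson r of log2(RPM + 1) was 0.908 to 0.994 within sets and 0.710 to 0.932 between them. Because no sham or CIH heart is in set B or C, set and infarction can be separated only through MI 2 and MI+CIH 1. Each comparison of the members is therefore given also with the set as a term of the fit. The sets were found from the same values, members included, so the set term can also take up a response to infarction. Where a call ends with the set term, a set difference and such a response cannot be told apart. miR-1a-3p, the leading muscle miRNA, was at 69203 to 314224 RPM, and all 5 heart muscle markers were detected in every library.

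Without the set in the fit, miR-497a-5p was the member with the largest log2 change between groups, at 7.26 ± 3.91 RPM (SD, n = 5) in sham and 51.8 ± 34.8 RPM (SD, n = 7) in MI+CIH hearts. miR-15b-5p was also higher in MI+CIH than in sham hearts, and these were the 2 of 6 members past the threshold in that comparison, beside 56.7% of all tested miRNAs. miR-16-5p, the most abundant member, passed only in MI+CIH against CIH hearts, where 56.9% of all tested miRNAs passed, and its direction there turned with median-of-ratios scaling, in edgeR and in DESeq2. No member passed the threshold in MI against sham, CIH against sham or MI+CIH against MI hearts with all libraries in the fit. No call was kept when the library set entered the fit.

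**Figure D1:**
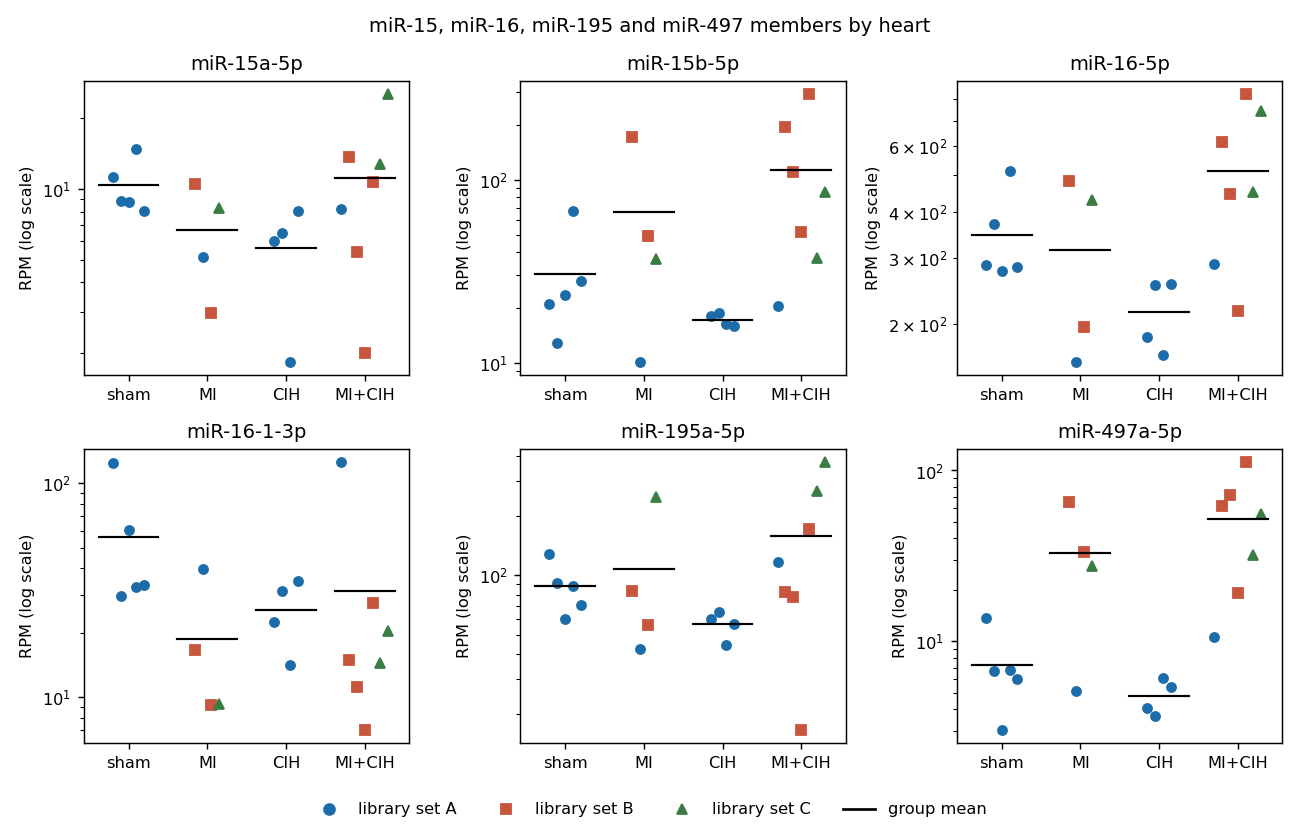
Level of each member in each heart (RPM, log scale), by group on the horizontal axis, with the library set shown by marker and the group mean by a line. The miR-497a-5p values of sets B and C lie at 19.1 RPM or above and those of set A at 13.7 RPM or below.

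Among the products of the chromosome 14 pair, miR-15a-5p, for which BCL2 was an early reported target, was the least abundant member. It stood at 11.2, 8.91, 8.80, 14.7 and 8.06 RPM in sham 1 to 5, and at 10.5, 5.11, 2.95 and 8.27 RPM in MI 1 to 4. In CIH 1 to 4 it was at 6.01, 6.51, 1.84 and 8.02 RPM, all below the lowest sham value. The 7 MI+CIH hearts ran from 2.01 through a median of 10.7 to 25.1 RPM and spanned the range of the sham and MI hearts. Its lowest value rests on 4 reads in MI+CIH 4 (95% Poisson interval 0.547 to 5.14 RPM, counting error only), while MI+CIH 7 had 306 reads.

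miR-16-5p, made by both the chromosome 14 and the chromosome 3 pair, ranked 76th of 1545 entries by mean level and supplied 56.4% to 75.5% of the summed reads of the 5p members in a library. Its sham values were 288, 369.9, 277, 513 and 285 RPM, and its MI values were 482, 158, 196 and 429 RPM. The CIH values, 185, 254, 165 and 256 RPM, all lay below the lowest sham value. The MI+CIH hearts ran from 217 through a median of 452 to 824 RPM, and 1 of them, MI+CIH 4, lay below every sham heart.

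miR-16-1-3p, the arm of Mir16-1 with the other seed, was at 124, 29.7, 60.2, 32.6 and 33.4 RPM in sham 1 to 5. It was at 16.7, 39.7, 9.15 and 9.26 RPM in MI and at 22.4, 31.3, 14.1 and 34.9 RPM in CIH hearts. In MI+CIH hearts it ran from 7.03 through 14.8 to 125 RPM. The 2 high values, sham 1 and MI+CIH 1, belong to libraries that were each other's nearest by profile (r = 0.986). miR-16-5p was not raised in those 2 libraries, at 288 and 289 RPM.

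Of the chromosome 3 pair, miR-15b-5p was at 21.0, 12.8, 23.6, 67.4 and 27.8 RPM in sham hearts. It was at 171, 10.1, 49.0 and 36.8 RPM in MI hearts, which spanned the sham range on both sides. The 4 CIH hearts lay close together at 18.0, 18.8, 16.2 and 15.8 RPM. MI+CIH hearts ran from 20.5 through 85.5 to 292 RPM, and 4 of 7 lay above the highest sham heart.

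Of the chromosome 11 pair, miR-195a-5p, the member best known for limiting division of newborn heart muscle cells, was at 129, 91.8, 60.3, 88.1 and 70.9 RPM in sham hearts. It was at 83.4, 42.4, 55.8 and 249 RPM in MI hearts and at 59.95, 65.6, 44.3 and 56.6 RPM in CIH hearts. MI+CIH hearts ran from 16.6 through 117 to 372 RPM. The 3 highest values of miR-195a-5p were those of set C, 249, 267 and 372 RPM, and the lowest was that of MI+CIH 4 (33 reads). miR-497a-5p, which is made 241 bases away, was at 13.7, 6.75, 3.03, 6.84 and 6.01 RPM in sham hearts and at 65.2, 5.11, 33.4 and 27.5 RPM in MI hearts. CIH hearts were at 4.05, 3.67, 6.09 and 5.40 RPM, and MI+CIH hearts ran from 10.5 through 55.5 to 112 RPM. Every infarcted heart of sets B and C was above every sham and CIH heart for miR-497a-5p. MI 2 and MI+CIH 1, the infarcted hearts of set A, lay within the sham range.

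Summed over the 5 members of the 5p arm, the family reached 483 ± 125 RPM (SD, n = 5) in sham, 531 ± 295 RPM (n = 4) in MI, 299 ± 55.5 RPM (n = 4) in CIH and 846 ± 407 RPM (n = 7) in MI+CIH hearts. The sum ran from 221 RPM in MI 2 to 1409 RPM in MI+CIH 5, or 0.0221% to 0.141% of the reads. By mean over all libraries the order was miR-16-5p (372 RPM), miR-195a-5p (110.0 RPM), miR-15b-5p (64.0 RPM), miR-497a-5p (27.5 RPM) and miR-15a-5p (8.93 RPM), with miR-16-1-3p at 33.9 RPM. All are 21 or 22 bases long, so no length correction applies. Neighbours in that order overlapped between libraries: miR-195a-5p was below miR-15b-5p in each library of set B except MI 3 (55.8 and 49.0 RPM), and miR-497a-5p was below miR-15a-5p in 4 of 5 sham and 3 of 4 CIH hearts. miR-16-5p was above every other member in every library.

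**Figure D2:**
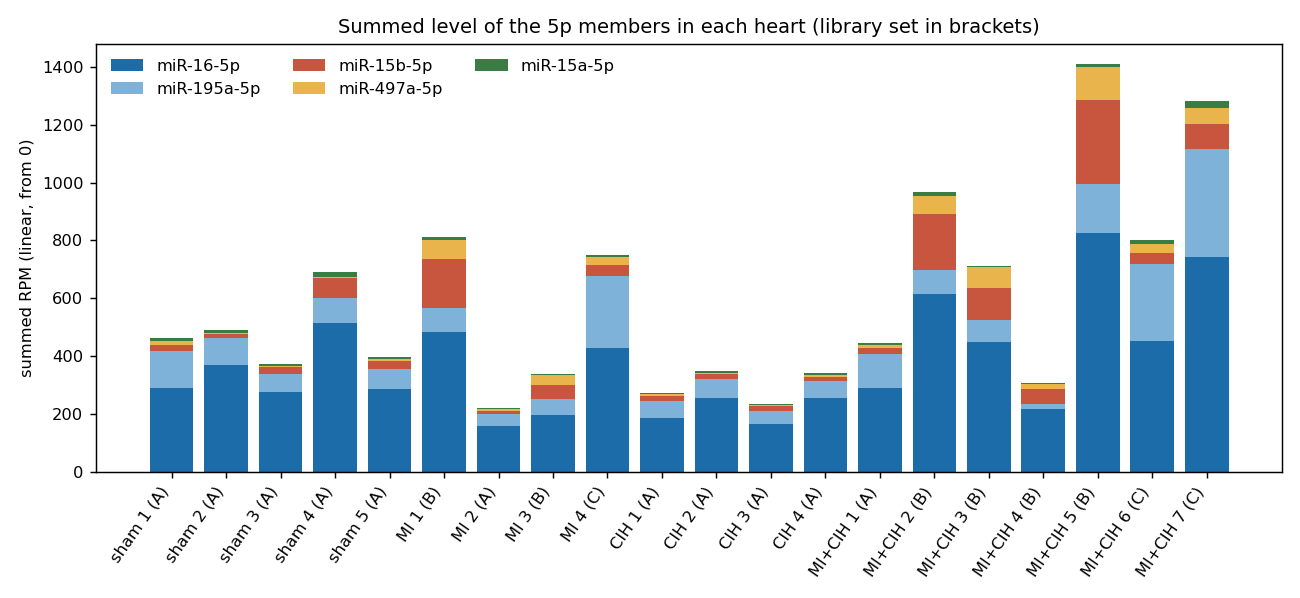
Summed RPM of the 5 members of the 5p arm in each heart (linear axis from 0), stacked by member, with the library set in brackets. The sums run from 221 RPM in MI 2 to 1409 RPM in MI+CIH 5, miR-16-5p forms most of every bar, and the miR-15b-5p share is 14.5% to 21.1% in set B and at most 9.77% in sets A and C.

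The changes below are differences of mean log2(RPM + 1) from limma, fitted on all 360 miRNAs and adjusted over them, and the fold of a low member is understated by the added 1 RPM. RPM are shares of a library, so each change is read beside the median of all tested miRNAs. Because the tissue is bulk heart, fewer cells of a type and less RNA per cell cannot be told apart.

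In MI against sham hearts, 0 of 6 members passed in limma, edgeR or DESeq2, and 0% of all tested miRNAs passed in limma. miR-497a-5p differed by 1.72 (SE 0.67, adjusted p = 0.125) and miR-16-1-3p by -1.55 (SE 0.67, adjusted p = 0.138), the 2 members with an unadjusted p under 0.05, where 28.1% of all tested miRNAs had one. The other 4 members differed by -0.64 to 0.68, and the median over all tested miRNAs was 0.94. No member separated the groups without overlap, as 5.28% of tested miRNAs did. Without MI 2, miR-497a-5p rose by 2.40 (adjusted p = 0.0107) and miR-16-1-3p fell by 1.99 (adjusted p = 0.0364), while 113 of 360 miRNAs passed. No MI heart of set A then remained, so set and infarction cannot be told apart in that fit. With all libraries and the set as a term, miR-497a-5p differed by -0.09 and miR-16-1-3p by 0.26 (adjusted p = 0.996 each).

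In CIH against sham hearts all 6 members had lower means and 0 passed in limma, edgeR or DESeq2 (limma adjusted p = 0.998 each, and 0 with an unadjusted p under 0.05, which 0.278% of all tested miRNAs had), beside 0% of all tested miRNAs. The changes ran from -0.94 for miR-16-1-3p to -0.41 for miR-497a-5p, with a median of -0.63 beside -0.21 over all tested miRNAs, of which 27.8% were positive. miR-15a-5p (-0.87, SE 0.55) and miR-16-5p (-0.67, SE 0.48) were the 2 of 6 members whose CIH and sham hearts did not overlap, where 2.78% of tested miRNAs did not. For miR-15a-5p, CIH 4 and sham 5 were at 8.02 and 8.06 RPM, within counting error (95% Poisson intervals 6.49 to 9.80 and 6.07 to 10.5 RPM). These 2 members also went together in set A (Pearson r = 0.835). All libraries of both groups belong to set A. In a fit of set A alone 4 members had an unadjusted p under 0.05, beside 9.72% of all tested miRNAs, miR-15a-5p (0.0266) and miR-16-5p (0.0231) among them, and 0 passed (adjusted p = 0.509 to 0.703).

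In MI+CIH against sham hearts, 2 of 6 members rose and 0 fell, where 56.7% of all tested miRNAs passed, 52.2% as higher and 4.44% as lower. miR-497a-5p rose by 2.46 (SE 0.58, adjusted p = 0.00283), 5.51-fold on the RPM + 1 scale, and 6 of 7 MI+CIH hearts were above every sham heart. miR-15b-5p rose by 1.59 (SE 0.65, adjusted p = 0.0423), 3.00-fold. Relative to the median of all tested miRNAs, 1.39, miR-497a-5p was 1.07 higher, miR-15b-5p 0.19 higher and miR-16-5p -0.93. The other 4 members differed by -1.21 (miR-16-1-3p, adjusted p = 0.0805) to 0.47 (miR-16-5p, adjusted p = 0.332). No member separated the groups without overlap, beside 15.3% of tested miRNAs.

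Both calls ended with the set as a term: miR-497a-5p was then at 0.38 (adjusted p = 0.843) and miR-15b-5p at -0.49 (adjusted p = 0.810), and 0 of 360 miRNAs passed. In edgeR neither passed (miR-497a-5p 1.09, adjusted p = 0.0810), and in DESeq2 miR-497a-5p did. With median-of-ratios scaling, which moved the median of all tested miRNAs to 0.12, miR-497a-5p stayed higher by 1.15 (adjusted p = 0.0315), miR-15b-5p was at 0.21 (adjusted p = 0.698) and miR-16-1-3p fell by 2.49 (adjusted p = 0.0143). The miR-15b-5p call also ended without any 1 of 11 libraries (sham 1, 2, 3 or 5, CIH 1, 2 or 4, MI+CIH 2, 3, 5 or 7), with adjusted p of 0.0501 to 0.109. Without MI+CIH 1, miR-16-1-3p fell by 1.64 (adjusted p = 0.00756). No MI+CIH heart of set A then remained, so set and group cannot be told apart in that fit. With all libraries and the set as a term, miR-16-1-3p was at 0.86.

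Against CIH hearts, 3 of 6 members rose in MI+CIH hearts and 0 fell, where 56.9% of all tested miRNAs passed, 54.7% as higher and 2.22% as lower. miR-497a-5p rose by 2.87 (SE 0.62, adjusted p = 0.00202), miR-15b-5p by 2.17 (SE 0.69, adjusted p = 0.0138) and miR-16-5p by 1.14 (SE 0.44, adjusted p = 0.0328). The median of all tested miRNAs was 1.51, so miR-16-5p rose by less than it, at -0.37 relative to it. miR-497a-5p and miR-15b-5p were the 2 of 6 members without overlap between the groups, beside 28.3% of tested miRNAs. This comparison shares its MI+CIH hearts with those above. With the set as a term the 3 members were at 0.79, 0.09 and 0.33 (adjusted p = 0.473, 0.939 and 0.723). Median-of-ratios scaling, which moved the median of all tested miRNAs to 0.07, turned miR-16-5p to -0.53 (adjusted p = 0.348), and it was at -0.51 in edgeR and -0.39 in DESeq2. miR-15b-5p was at 0.53, 0.55 and 0.74 in the same order and passed in none of the 3. miR-497a-5p still passed with that scaling (1.32, adjusted p = 0.0281) and in DESeq2, but not in edgeR (1.37, adjusted p = 0.0568), where 0 members did. The miR-16-5p call also ended without any 1 of CIH 1 to 4 or MI+CIH 2, 5 or 7 (adjusted p = 0.0516 to 0.0894), and without MI+CIH 4 miR-195a-5p rose by 1.43 (adjusted p = 0.0263).

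Between MI+CIH and MI hearts, all 6 members had higher means in MI+CIH, by 0.35 to 0.90, and 0 passed in limma, edgeR or DESeq2 (limma adjusted p = 0.895 to 0.898, and 0 with an unadjusted p under 0.05, which 4.72% of all tested miRNAs had), as did 0% of all tested miRNAs. The members' median was 0.61 beside 0.41 over all tested miRNAs, of which 80.3% were positive. Both groups have libraries in every set, so hearts can also be set side by side within sets. Of 7 MI+CIH hearts, 5 lay above every MI heart of their own set for miR-15a-5p, miR-15b-5p, miR-16-5p and miR-497a-5p. For miR-16-1-3p and miR-195a-5p, 4 did. Sets A and C hold only 1 MI heart each, so the order there rests on a single MI library. The same count was not made over all tested miRNAs, so it cannot show whether the members stand apart from them. With the set as a term the changes were 0.35 to 0.64 (adjusted p = 0.403 to 0.715), and 0 members passed beside 0.556% of all tested miRNAs. Of all tested miRNAs, 74.2% were then positive. No member separated the groups without overlap, beside 0.278% of tested miRNAs, which is miR-451a.

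The interaction, the effect of CIH in infarcted hearts minus that in sham hearts, was positive for all 6 members at 1.004 to 1.48, with 0 past the threshold in limma, edgeR or DESeq2 (limma adjusted p = 0.880), beside 0% of all tested miRNAs. The median over all tested miRNAs was 0.63, and 81.1% of them were positive. miR-16-5p had the 1 unadjusted p under 0.05 (0.0444), where 3.89% of tested miRNAs had one. With the set as a term the members were at 0.88 to 1.55 (adjusted p = 0.185 to 0.410), and 76.4% of all tested miRNAs were positive.

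**Figure D3:**
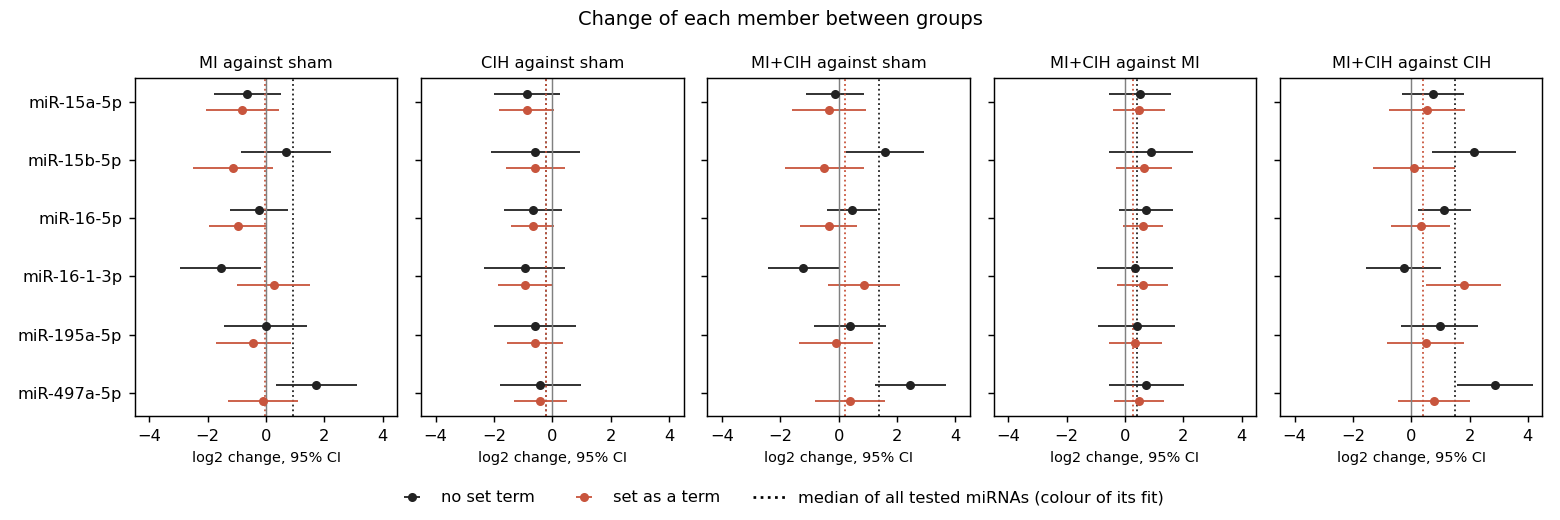
Change of each member (log2 of RPM + 1, with 95% confidence interval) in 5 comparisons, without a set term (black) and with it (red), dotted lines giving the median of all tested miRNAs in each fit. In MI+CIH against sham, miR-497a-5p lies at 2.46 without the set term and at 0.38 with it.

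With 1 RPM added to each member, 4 ratios between members were compared in 5 group comparisons by exact permutation tests, two-sided, and 0 of 20 passed after adjustment. The smallest possible exact permutation p was 0.00794 for MI or CIH against sham and 0.00303 for MI+CIH against MI or CIH. In those comparisons a single test at its limit could not pass after adjustment over 20, so the outcome was limited in advance. The ratio of miR-497a-5p to its neighbour miR-195a-5p had the 2 lowest p-values. It was 0.0785 ± 0.0203 (SD, n = 5) in sham, 0.403 ± 0.340 (n = 4) in MI, 0.0891 ± 0.0363 (n = 4) in CIH and 0.548 ± 0.430 (n = 7) in MI+CIH hearts. The log2 difference from sham, with 1 RPM added to each member, was 1.74 in MI (exact permutation p = 0.00794, the smallest that 126 arrangements allow, adjusted p = 0.126) and 2.07 in MI+CIH hearts (exact permutation p = 0.0126, adjusted p = 0.126).

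By set, the ratio of miR-497a-5p to miR-195a-5p was 0.0502 to 0.138 across the libraries of set A, 0.598 to 1.15 across those of set B and 0.110 to 0.149 across those of set C. The 2 products of the chromosome 11 pair were near equal in set B alone. In set A, the ratio was 0.121 in MI 2 and 0.0902 in MI+CIH 1, beside 0.0502 to 0.107 in the 5 sham hearts. The ratio of miR-15b-5p to miR-16-5p followed the same order, with 0.238 to 0.355 in set B above 0.0347 to 0.131 in set A and 0.0828 to 0.115 in set C.

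The ratio of the 5p to the 3p arm of 1 hairpin, chosen after its values were seen and not tested, also differed by set. For Mir195a it was lowest in set B (0.0340 to 0.756), higher in set A (0.555 to 2.02) and highest in set C (3.78 to 13.1), with sets A and B overlapping. Within set A the 3p arm was above the 5p arm in 5 of 11 libraries (MI 2, MI+CIH 1 and CIH 1, 3 and 4, at 0.555 to 0.957), while the 5 sham hearts were at 1.05 to 2.02. miR-195a-3p (seed in capitals: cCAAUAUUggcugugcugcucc) outnumbered miR-195a-5p in all 6 libraries of set B, and its mean of 178 RPM over all libraries was above that of miR-195a-5p. miR-16-5p over miR-16-1-3p was lowest in set A (2.31 to 15.7), and higher in sets B (21.5 to 41.4) and C (31.5 to 46.3).

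**Figure D4:**
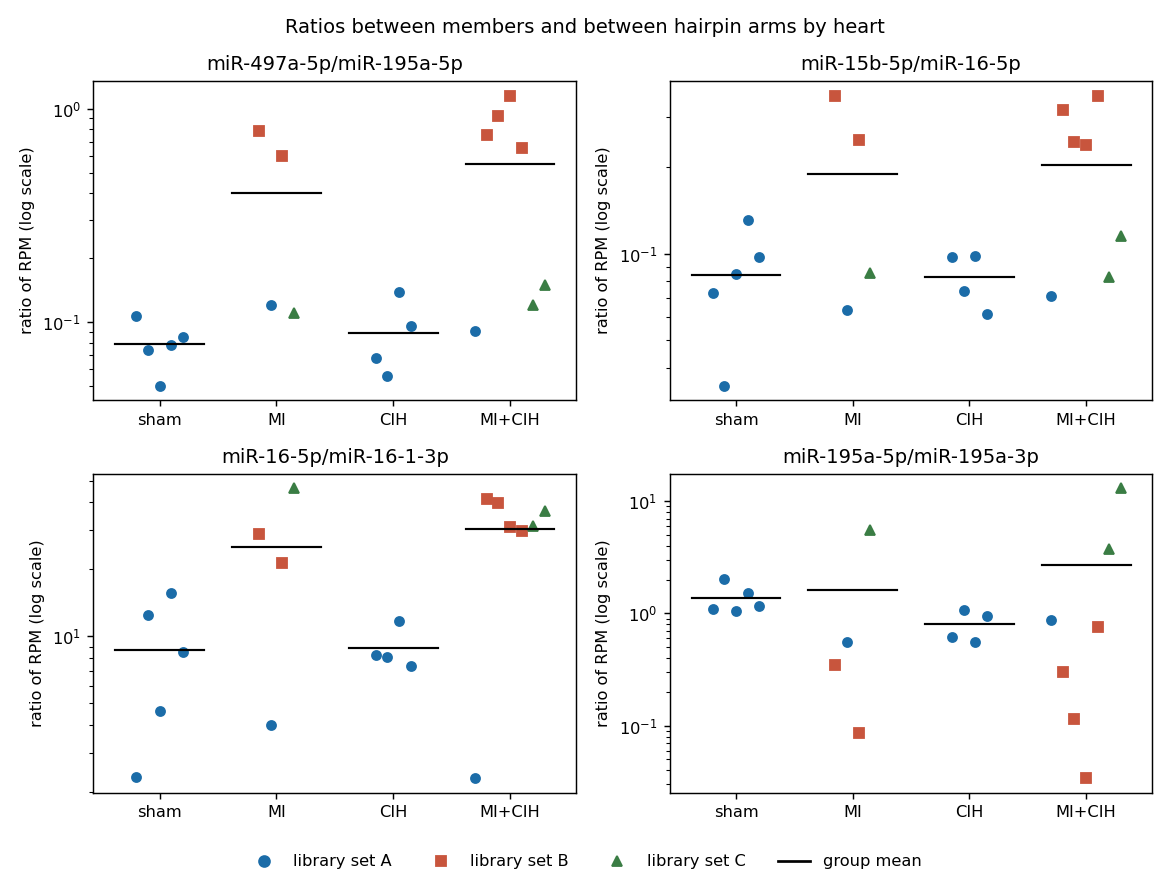
Ratio of RPM in each heart (log scale) for miR-497a-5p to miR-195a-5p, miR-15b-5p to miR-16-5p, miR-16-5p to miR-16-1-3p and miR-195a-5p to miR-195a-3p, with the set by marker and the group mean by a line. The miR-497a-5p to miR-195a-5p ratio of set B, 0.598 to 1.15, does not overlap that of set A, 0.0502 to 0.138, or of set C.

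Products of 1 pair were compared across libraries within set A (n = 11) and set B (n = 6), since the sets stand apart, in 8 relations on log2(RPM + 1). miR-15a-5p and miR-16-5p went together in set A (Pearson r = 0.835, permutation p = 0.00034, adjusted p = 0.00272, Spearman rho = 0.927, permutation p = 0.0002, adjusted p = 0.0016), and r was 0.825 without CIH 3 and sham 4. In set B, r was 0.914 (exact permutation p = 0.0306, adjusted p = 0.0349) and rho 0.886 (exact permutation p = 0.0333, adjusted p = 0.0533), and r was 0.583 without MI 3 and MI+CIH 4. miR-15b-5p and miR-16-5p had r = 0.988 and rho = 1 in set B (exact permutation p = 0.00278, adjusted p = 0.0111, for each), and r was 0.937 without MI 3 and MI+CIH 4. In set A, r was 0.707 (permutation p = 0.0241, adjusted p = 0.0322) and rho 0.536 (permutation p = 0.0949, adjusted p = 0.108), and with r at 0.05 without MI 2 and sham 4 this relation rests on those libraries.

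miR-195a-5p and miR-497a-5p had r = 0.963 (exact permutation p = 0.0139, adjusted p = 0.0267) and rho = 0.829 (exact permutation p = 0.0583, adjusted p = 0.0778) in set B, with r = 0.950 without MI+CIH 4 and 5. In set A, r was 0.733 (permutation p = 0.0113, adjusted p = 0.0267) and rho 0.664 (permutation p = 0.0303, adjusted p = 0.0533), and r was 0.297 without sham 1 and MI+CIH 1, so it rests on those 2 libraries. miR-16-5p, which Mir16-2 also makes, and miR-16-1-3p of Mir16-1 had r = 0.296 (permutation p = 0.381, adjusted p = 0.381) and rho = 0.282 (permutation p = 0.403, adjusted p = 0.403) in set A. In set B they had r = 0.907 (exact permutation p = 0.0167, adjusted p = 0.0267) and rho = 0.886 (exact permutation p = 0.0333, adjusted p = 0.0533), with r = 0.832 without MI+CIH 4 and 5. The other 11 pairs of members, not tested, had r of 0.0896 to 0.706 in set A and of 0.809 to 0.943 in set B, where miR-15b-5p and miR-16-1-3p, from different chromosomes, reached that highest value. High r in set B was therefore not particular to products of 1 hairpin pair. Each set holds more than 1 group. In set B, MI 3 and MI+CIH 4 had the 2 lowest values of every member, at 3387231 and 1991323 reads per library. MI+CIH 3, also of set B and with 2051573 reads, was the next lowest for each member except miR-497a-5p, where it was at 71.7 RPM. The part of depth was not tested.

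Of 5 further miRNAs with the seed AGCAGCA, 1 was listed, miR-322-5p (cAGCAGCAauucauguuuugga), the others not being analysed here. miR-322-5p, made with miR-503 in a cluster known for roles in muscle differentiation, was at 41.4 ± 16.1 RPM (SD, n = 5) in sham and 51.2 ± 30.2 RPM (n = 7) in MI+CIH hearts, a change of 0.04 (SE 0.57, adjusted p = 0.949). miR-503-5p (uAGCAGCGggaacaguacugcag), which shares the first 6 seed bases, was at 6.15 ± 1.64 RPM in sham and 11.4 ± 7.05 RPM in MI+CIH hearts, a change of 0.63 (SE 0.43, adjusted p = 0.206). miR-195a-3p was at 68.0 ± 28.3 RPM in sham and 271 ± 235 RPM in MI+CIH hearts, a change of 1.46 (SE 0.69, adjusted p = 0.0755), and miR-15b-3p differed by 0.39 (adjusted p = 0.492). When the set entered the fit, these 4 were at 0.35 (miR-322-5p), 0.15 (miR-503-5p), 0.71 (miR-195a-3p) and -0.11 (miR-15b-3p). None of these 4 passed in any of the comparisons. The remaining arms, miR-15a-3p, miR-16-2-3p and miR-497a-3p, and miR-497b were below the filter, with at most 36 reads in a library.

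For each member the 3 other tested miRNAs with the highest Pearson r over the 20 libraries were picked, and r within sets is given as a description with no test. For miR-15a-5p the first was miR-106b-5p (r = 0.904 in set A, n = 11, and 0.969 in set B, n = 6), of a cluster related to miR-17/92, followed by miR-30b-5p (0.858 and 0.913) and miR-152-3p (0.729 and 0.820). For miR-15b-5p it was miR-93-5p of the same cluster (0.785 and 0.965), followed by miR-652-3p (0.613 and 0.959) and miR-26b-5p (0.512 and 0.976). For miR-16-5p the 3 were miR-30b-5p (0.771 and 0.949), miR-425-5p (0.760 and 0.924) and miR-17-5p (0.779 and 0.965). For miR-16-1-3p they were miR-136-3p (0.946 and 0.828), miR-3071-5p (0.947 and 0.824) and miR-101b-3p (0.851 and 0.873). For miR-195a-5p they were miR-381-3p (0.798 and 0.897), miR-29a-3p (0.458 and 0.860) and miR-194-5p (0.271 and 0.983). For miR-497a-5p they were miR-329-3p (0.771 and 0.884), miR-666-5p (0.689 and 0.869) and let-7i-5p (0.641 and 0.772). The points share library, depth and scaling.

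Markers of other cells moved with the groups and the sets, and their part in the members' changes was not tested. The 3 fibroblast markers (miR-199a-3p, miR-199a-5p and miR-214-3p) summed to 386 to 1844 RPM in sham, 363 to 3935 RPM in MI, 187 to 423 RPM in CIH and 1263 to 6822 RPM in MI+CIH hearts. The 5 leukocyte markers, with miR-142a-3p at 0 in some libraries, summed to 281 to 652, 207 to 1599, 248 to 505 and 361 to 1929.9 RPM in the same order. The 4 erythroid markers summed to 579 to 3984, 1012 to 7138, 1116 to 2480 and 1422 to 15227 RPM. miR-451a, the red cell miRNA, was itself at 307 to 3078 RPM in sham and 95.7 to 916 RPM in MI hearts. In CIH hearts it was at 559 to 1949.7 RPM and in MI+CIH hearts at 1076 to 5679.5 RPM. Its mean was lower in MI than in sham hearts (611 and 1357 RPM), while the erythroid sum was higher (3993 and 1897 RPM). miR-16-5p was at 277 to 513, 158 to 482, 165 to 256 and 217 to 824 RPM in sham, MI, CIH and MI+CIH hearts. The 5 heart muscle markers summed to 193400 to 278567, 164363 to 300726, 252947 to 317715 and 88429 to 269465 RPM. By set, leukocyte markers summed to 1209 to 1929.9 RPM in B and to 207 to 652 RPM elsewhere. Erythroid markers summed to 5081 to 15227 RPM in B and to 579 to 3984 RPM elsewhere. miR-451a alone did not set B apart, at 95.7 to 5679.5 RPM in B and 307 to 3078 RPM in A. Over all libraries miR-144-3p and miR-144-5p reached at most 26.9 and 177 RPM, and miR-486a-5p was at 246 to 10305 RPM. The erythroid sum of set B therefore does not stand for every marker of its list. Heart muscle markers were lowest in set B, at 88429 to 184647 RPM beside 183397 to 317715 RPM elsewhere, and fibroblast markers were at 187 to 1844 RPM in set A, 1263 to 5709 RPM in B and 3935 to 6822 RPM in C. Set B also held the highest ratios of miR-497a-5p to miR-195a-5p and of miR-15b-5p to miR-16-5p. The 2 endothelial markers summed to 24768 to 50262 RPM in set C and to at most 10970.2 RPM elsewhere. The 3 smooth muscle and mural markers summed to 26240.2 to 41996 RPM in set C and to at least 130637 RPM elsewhere.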

How the data were processed

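The 20 small RNA libraries of mouse heart were made with a NEBNext kit from 3 µg of total RNA, per the labels' protocols. The values deposited by the authors are headed TPM and are RPM: every column sums to 1000000 and 100% of the values were whole multiples of 1 read (tolerance 0.05 reads). Per the submitters' processing notes the tools were Bowtie and DESeq 1.8.3 and the build mm10, with no role given; the miRBase release, counting rule and treatment of reads matching several entries are not given in the sources used here.

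log2(RPM + 1) of the 360 miRNAs that reached 5 RPM in 4 or more libraries was fitted with limma 3.58.1 (R 4.3.3; group means over 20 libraries, trend, 16 residual and 5.90 prior degrees of freedom), two-sided, Benjamini-Hochberg over the 360 in each of 6 contrasts, threshold 0.05. The planned test was written for such values and was kept. The fit was tested on simulated data with independent libraries, a common dispersion and no library sets, so that test does not cover the differences between sets found here. Library sets came from clustering the libraries on log2(RPM + 1). Ratios and relations used exact permutations, or 100000 resamples for 10 or more libraries (SciPy 1.17.1). Named miRNAs are the 6 members, their other arms, listed miRNAs with the same seed, miR-503-5p, 3 miRNAs of highest r per member, and miR-451a. Members, lists and library sets were chosen with earlier results of these data known. Alternatives were median-of-ratios scaling, no filter or a minimum mean of 50 RPM, a pseudocount of 0.5 or 5 RPM, the compared groups alone, a replicate block, a set term, sets A and B alone, removal of 12 repeated entries or of single libraries, of sham 1 with MI 2, and edgeR 4.0.16 and DESeq2 1.42.0 on recovered reads. Totals of 1991323 to 18138415 reads bound the counting precision.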

Additional observations from a re-analysis of the deposited data

Results flagged for a closer look

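Each member and the summed 5p level were checked in each group of 4 to 10 libraries for a value far from the rest, 28 groups in all, and chance alone picks about 1 in 20 such groups. miR-15b-5p in sham 4, at 67.4 RPM, stood apart from the other sham hearts (12.8 to 27.8 RPM), with a gap of 0.725 of the group's range against a limit of 0.71. miR-16-1-3p in MI+CIH 1, at 125 RPM, stood apart from the other MI+CIH hearts (7.03 to 27.7 RPM), with a gap of 0.825 of the range against a limit of 0.568. MI+CIH 1 is the 1 MI+CIH library of set A.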

How the results depend on the processing

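Of the values of single members under alternatives that keep all libraries or drop a whole set or pair, 388 kept their direction and their side of the threshold, 37 changed sign, 5 of them also losing a call, and of those that kept their sign 23 lost and 2 gained one. The cause was not tested where a value moved. In MI against sham, miR-15b-5p turned to -0.23 with median-of-ratios scaling, -1.14 with the set term, -1.29 in set A, -0.40 in edgeR and -0.24 in DESeq2. With the set term miR-16-1-3p turned to 0.26 and miR-497a-5p to -0.093 (-0.31 in set A). miR-195a-5p was at 0.45 without sham 1 and MI 2, where 1 member passed (miR-497a-5p, 2.64) and sham and MI hearts shared no set. In MI+CIH against sham, miR-16-5p turned to -0.93 with median-of-ratios scaling, -0.34 with the set term, -0.22 in set A, -0.95 in edgeR and -0.80 in DESeq2. miR-195a-5p turned to -0.98 with that scaling, -0.091 with the set term, -0.35 in edgeR and -0.21 in DESeq2. miR-15b-5p was at -0.49 with the set term and -0.34 in set A, and miR-16-1-3p at 0.86 and 1.38. Beside 2 members called, 1 was called with no filter, with the filter on a mean of 50 RPM, without sham 1 and MI 2, without repeated entries and in DESeq2, and 0 with the set term, in set A and in edgeR (miR-497a-5p 1.09, adjusted p = 0.0810). Between MI+CIH and MI, median-of-ratios scaling put miR-16-1-3p at -0.088 and miR-195a-5p at -0.046, and set B alone put miR-195a-5p at -0.052. Against CIH, that scaling turned miR-15a-5p to -0.63, miR-16-5p to -0.53 and miR-195a-5p to -0.66. edgeR gave -0.51 for both miR-15a-5p and miR-16-5p, DESeq2 gave -0.42 and -0.39, and miR-16-1-3p was at 1.81 with the set term and 2.32 in set A. Beside 3 members called there, 1 was called with median-of-ratios scaling and in DESeq2, and 0 with the set term, in set A and in edgeR. Of the log2 ratios, miR-15a-5p to miR-16-5p in CIH against sham was 0.10 with a pseudocount of 5 RPM. Without sham 1 and MI 2, miR-15b-5p to miR-16-5p was -0.19 and miR-497a-5p to miR-195a-5p -0.031 in MI+CIH against MI, and miR-195a-5p to miR-16-5p was 0.13 in MI+CIH against sham.

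Leaving out 1 library at a time gave 0 to 2 members called in MI against sham, 1 to 3 in MI+CIH against sham, 2 to 4 in MI+CIH against CIH and 0 in the other comparisons and among the ratios. The values of members that changed sign ranged from -0.50 to 0.031 (miR-16-5p) and -0.54 to 0.30 (miR-195a-5p) in MI against sham, -0.37 to 0.15 (miR-15a-5p) in MI+CIH against sham and -0.082 to 0.78 (miR-16-1-3p) between MI+CIH and MI. Among log2 ratios, miR-15a-5p to miR-16-5p ranged from -0.34 to 0.043 in CIH against sham. miR-15b-5p to miR-16-5p ranged from -0.19 to 0.27 in CIH against sham and -0.19 to 0.59 between MI+CIH and MI. miR-497a-5p to miR-195a-5p ranged from -0.029 to 0.36 in CIH against sham and -0.13 to 0.80 between MI+CIH and MI. miR-195a-5p to miR-16-5p ranged from -0.092 to 0.49 in MI, -0.061 to 0.28 in CIH and -0.29 to 0.19 in MI+CIH, each against sham, -0.56 to 0.016 between MI+CIH and MI and -0.37 to 0.11 between MI+CIH and CIH. Replicate numbers did not pair the libraries: 10 of 25 pairs with 1 number had r above 0.1, beside 50 of 122 pairs with different numbers. Of 20 libraries, 4 were nearest to their own number. With the replicate block, miR-195a-5p turned to 0.10 in MI against sham, -0.20 in MI+CIH against sham and -0.30 between MI+CIH and MI, and 2 members were called in each of MI+CIH against sham and against CIH, with 218 and 211 miRNAs in all (miR-16-5p lost its call against CIH, 0.92, adjusted p = 0.145). Over all tested miRNAs, MI against sham went from 0 to 14 (mean of 50 RPM), 39 (DESeq2), 31 (without MI+CIH 1), 113 (without MI 2) and 114 (without sham 1 and MI 2). In both fits without MI 2, sham and MI hearts shared no set. MI+CIH against sham went from 204 to 135 (no filter), 92 (mean of 50 RPM), 112 (median-of-ratios), 85 (edgeR), 2 (set A) and 0 (set term). MI+CIH against CIH went from 205 to 94 (mean of 50 RPM), 97 (median-of-ratios), 75 (edgeR), 133 (DESeq2) and 0 (set A, set term). CIH against sham went from 0 to 1 in DESeq2, the interaction from 0 to 2 in set A, and MI+CIH against MI from 0 to 2 with the set term, 1 without MI 3 and 3 without MI+CIH 1. A mean of 50 RPM leaves out miR-15a-5p, miR-16-1-3p and miR-497a-5p, set B alone allows only MI+CIH against MI, and a fit of the compared groups gives no interaction. Depth limits miR-15a-5p most, with 4 reads in MI+CIH 4.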
